A study of Homo sapiens with 12 samples.

Results

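The 9 genes described here encode the integrin chains that leukocytes use for adhesion: ITGAX, ITGAM, ITGAL, ITGB2, ITGA4, ITGA5, ITGA6, ITGB1 and ITGB7. They were chosen by name, not by a threshold, and are 9 of the 19755 protein-coding genes for which values were deposited. All 9 had a row and passed the filter on low values. Their mRNA was measured by RNA sequencing in MOLM13, an established cell line grown from a human acute myeloid leukaemia, which in every group stably expressed Cas9 with a blasticidin selection marker. The cells were taken 7 days after lentiviral transduction, puromycin selection and sorting of cells bright for the red fluorescent protein of the guide construct, and no step of cloning is named. The groups were a control, called empty vector in some labels and non-targeting guide in others, and cells that received sgRNA1 or sgRNA2, the guides against YBX1. The YBX1 protein has a cold-shock domain and binds RNA. Each group held 4 libraries, numbered 1 to 4 in the labels.

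An integrin is a pair of an alpha and a beta chain that spans the membrane and joins ligands outside the cell to the actin skeleton inside it. The beta chain encoded by ITGB2 (CD18) pairs with the alpha chains of ITGAL (CD11a), ITGAM (CD11b) and ITGAX (CD11c), which bind intercellular adhesion molecules, complement fragments and fibrinogen, and is largely restricted to leukocytes. ITGB1 pairs among others with ITGA4, ITGA5 and ITGA6 into receptors for VCAM1 and fibronectin, for fibronectin and for laminin, while ITGB7 pairs with ITGA4 into the gut homing receptor. In blood, CD11c marks dendritic cells and monocytes and CD11b marks monocytes and granulocytes.

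All values are rlog values, the regularised log2 values of the authors' DESeq2 run, and a difference of 1 is a change of 2 times. They are relative to the other genes of the library and shrunken toward the mean of the gene where reads are few, so that changes of weakly expressed genes are understated. The depth of the libraries is unknown. YBX1 was at 12.76 to 12.96 in control, 11.08 to 11.38 with sgRNA1 and 11.83 to 12.07 with sgRNA2, so every library went with its label. All 8 markers of the line (CD33, FLT3, HOXA9, MEIS1, PTPRC, SPI1, CEBPA and MPO) were measured above the filter. Libraries with the same number deviated together in all 3 groups, and the number held a median of 57.4% of the squared deviations of a tested gene against 11% for the group. Fits are therefore given without the number and with the number as a block. Nothing says whether libraries of a group came from separate cultures, and p-values then measure only the spread between these libraries.

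ITGAX had the largest fitted difference of the 9 genes with either guide (0.50 and 0.64). In fits of all 12 libraries it passed the test across all genes only with the number as a block. ITGAM, ITGB7, ITGB2, ITGAL and ITGA5 were higher by smaller amounts, and ITGA4, ITGA6 and ITGB1 stayed within 0.06 of the control mean. ITGAX (ENSG00000140678.16) lies on chromosome 16 at 31355134 to 31382997 of GRCh38, plus strand, and ITGAM (ENSG00000169896.16) upstream of it on the same strand at 31259967 to 31332892. The RefSeq promoter table (GRCh38.p14) held windows for 6 of the 9 genes, ITGAM, ITGA4, ITGA5, ITGA6, ITGB1 and ITGB7. The stretch of ITGAM is shown because ITGAM moved with ITGAX. It covers chr16:31259725-31259966, plus strand, which ends before the first annotated base of the gene, and capitals mark GAGGAA, the letters searched for PU.1, a myeloid transcription factor encoded by SPI1.
ITGAM: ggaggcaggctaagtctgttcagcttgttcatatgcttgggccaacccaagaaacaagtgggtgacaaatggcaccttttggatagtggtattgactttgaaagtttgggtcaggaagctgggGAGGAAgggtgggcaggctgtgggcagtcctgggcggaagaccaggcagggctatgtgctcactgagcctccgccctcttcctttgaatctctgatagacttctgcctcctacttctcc

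Motifs were searched on both strands in the 250 bases before each RefSeq start. ITGA6 and ITGB1 had 2 windows each, and the 6 genes had 8 in all. Counts by gene and shares of all windows are therefore not like for like. GAGGAA was found for 3 of the 6 genes, ITGAM, ITGB1 and ITGB7, and in 23.6% of all 35116 windows. In ITGAM the match covers bases 127 to 122 before the start and overlaps neither of its matches to the GC box GGGCGG, a motif held by 4 of the 6 genes and 42.6% of all windows. CCAAT, the letters of the box that Y-box proteins were named for binding, was in none of the 6 genes and in 32% of all windows. TGAGTCA (AP-1) was in none of the 6 and 4.2% of windows, TGTGGT (RUNX) and CACGTG (E-box) each in ITGA6 alone and in 11% and 6.34% of windows. A match is a description of letters, and an absence says only that they are not in that window. SPI1 itself differed by 0.14 (SE 0.041) between both guides and control, which did not pass (limma adjusted p = 0.0609 with the block).

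ITGAX, the CD11c chain, was at 6.67, 6.75, 7.05 and 6.84 in control libraries 1 to 4. It was at 7.16, 6.95, 7.63 and 7.55 with sgRNA1 and at 7.21, 7.18, 7.76 and 7.70 with sgRNA2. Every sgRNA2 library lay above every control library, while sgRNA1 library 2 lay below control library 3, so that the control and sgRNA1 ranges overlapped. ITGAX was the only one of the 9 genes whose sgRNA2 libraries all lay above the controls, which held for 1.4% of the 10982 genes tested, against 1.24% for sgRNA1 and 0.419% for both guides, where none of the 9 genes did. Against the control of the same number, ITGAX was higher in 8 of 8 guide libraries, by 0.19 to 0.86. This held for ITGB2 and ITGAL as well, and for 4.33% of tested genes.

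**Figure D1:**
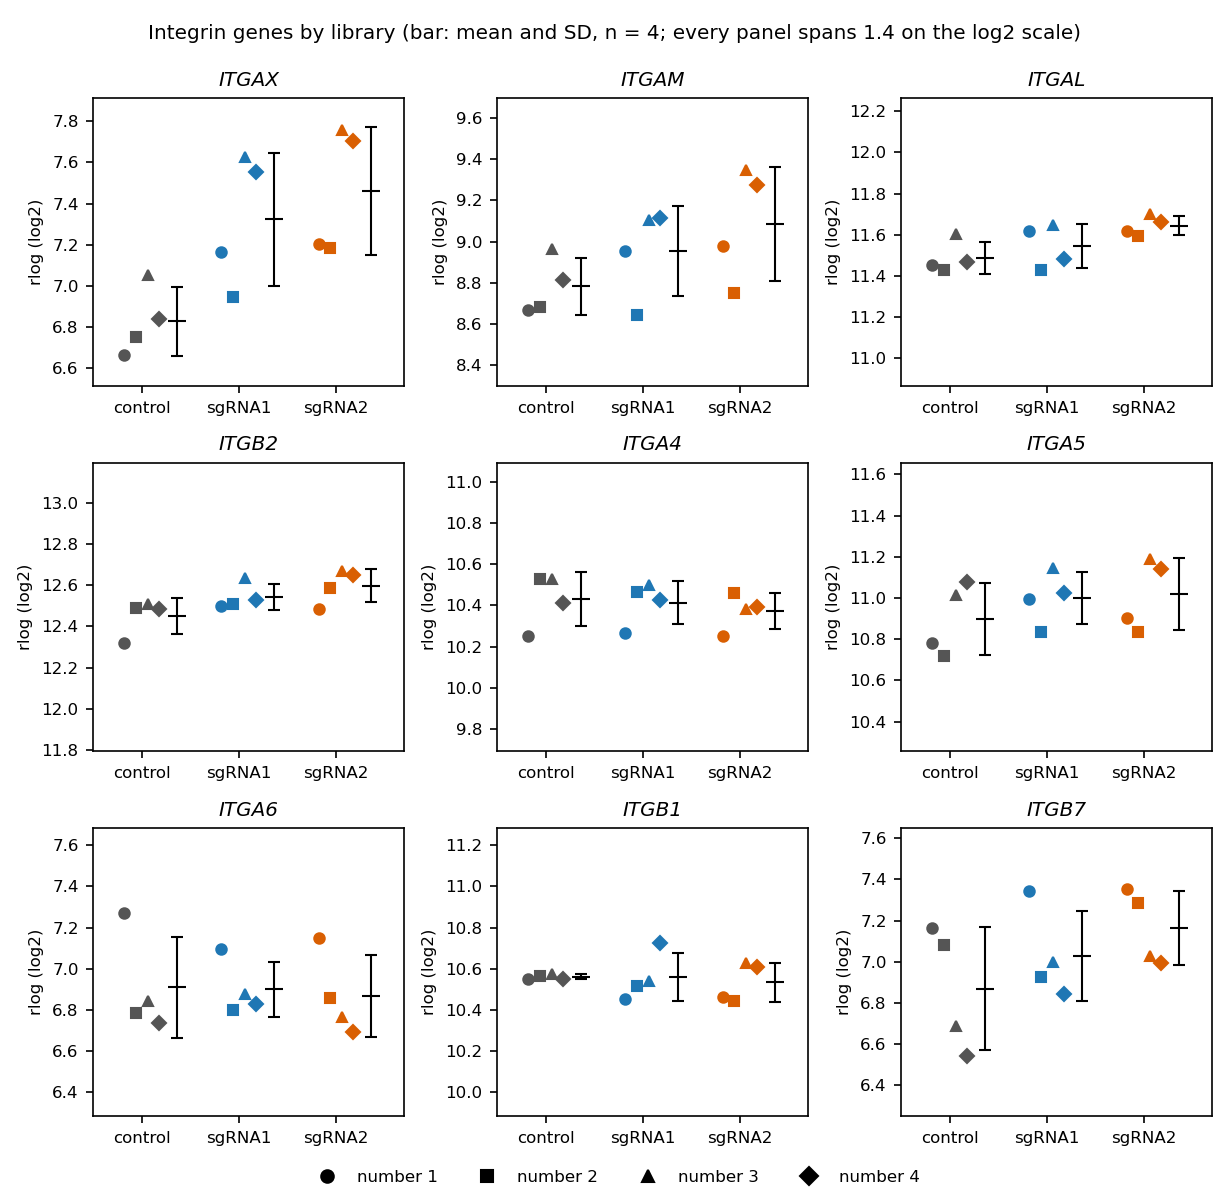
The rlog value (log2) of each of the 9 integrin genes by group, with a symbol for each library number and the mean ± SD (n = 4) at the right of each group; every panel spans the same range. ITGAX in sgRNA2 libraries sits at 7.18 to 7.76, above the highest control value of 7.05, while ITGB1 in control sits at 10.55 to 10.58.

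For both guides together the ITGAX difference was 0.57, a fold of 1.48 on the rlog scale. Its SE was 0.139 without the block and 0.061 with it. An exact two-sided permutation test of the 12 ITGAX values, 8 against 4 libraries, gave p = 0.00606, and arrangements within the number gave p = 0.0123, the smallest that 81 arrangements allow. Across all genes tested, the limma adjusted p for ITGAX was 0.211 without the block, which did not pass, and 2.63e-05 with it. ITGAX was among the largest increases already known for these libraries when the genes were chosen, so these p-values are not independent evidence. With the block ITGAX passed in all 16 leave-out fits, each without 1 library or 1 number, with differences of 0.49 to 0.65 and an adjusted p of at most 0.00212. In the 12 fits without 1 library and without the block it passed in none.

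Without the block none of the 9 genes passed for both guides, where 0.1% of all genes did, nor for sgRNA1 (0.0455%) or sgRNA2 (0.0364%). At an unadjusted p under 0.05 without the block, 2 of the 9 genes passed for both guides, 1 for sgRNA1 and 4 for sgRNA2, against 7.48%, 5.5% and 5.35% of all genes. With the block 4 of the 9 genes rose with both guides together, where 2.53% of all genes did: ITGAX, ITGAM, ITGB7 and ITGB2. With sgRNA1 ITGAX alone rose, against 1.37% of all genes. With sgRNA2 5 genes rose, ITGAX, ITGAM, ITGB7, ITGAL and ITGB2, against 2.17% of all genes. None of the 9 fell in any of these fits. The median difference of the 9 genes was 0.11 for both guides, 0.09 for sgRNA1 and 0.15 for sgRNA2, with all tested genes at -0.01 in each case. The comparisons of the guides share their control libraries.

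**Figure D2:**
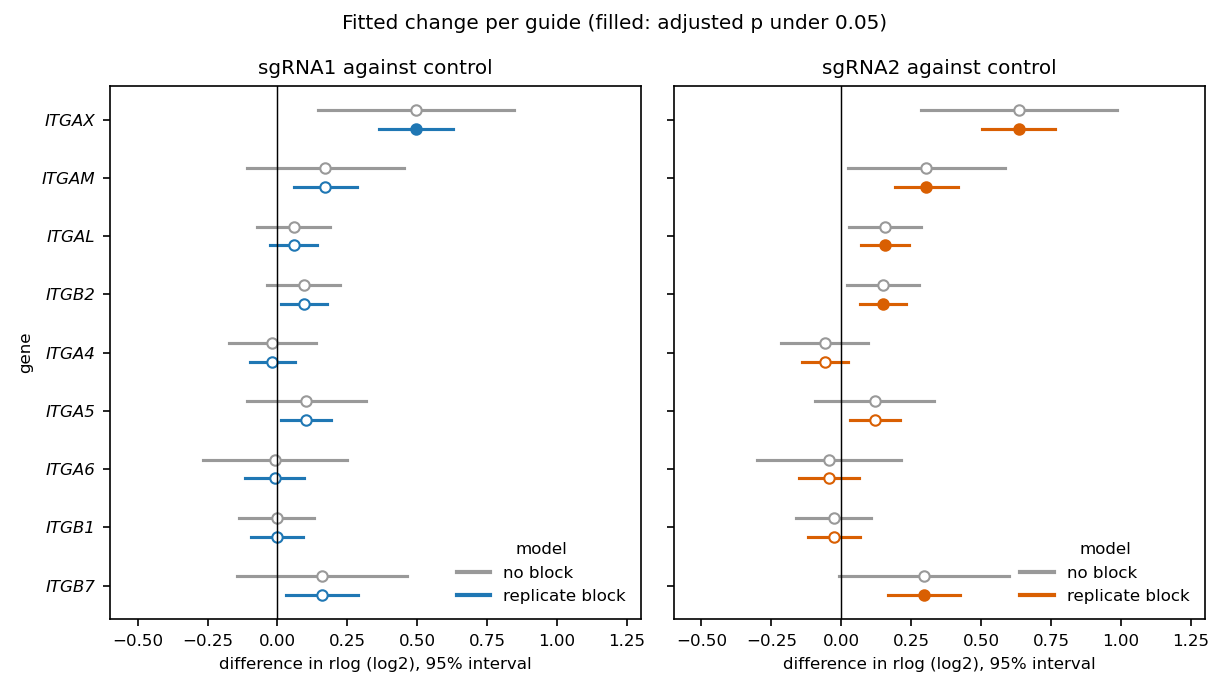
Fitted difference in rlog (log2) of each gene against control with its 95% interval, for sgRNA1 (left) and sgRNA2 (right), without a block (grey) and with the library number as a block (coloured); filled points passed an adjusted p of 0.05. The point estimates are the same in both models, ITGAX at 0.50 and 0.64, and the intervals are narrower with the block.

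ITGAM, the CD11b chain, was at 8.67, 8.68, 8.97 and 8.82 in control. It was at 8.95, 8.64, 9.10 and 9.11 with sgRNA1 and at 8.98, 8.75, 9.35 and 9.27 with sgRNA2. The groups overlapped, and ITGAM was higher than the control of the same number in 7 of 8 guide libraries, sgRNA1 library 2 being the exception at -0.04. With the block ITGAM rose by 0.24 for both guides (SE 0.054, adjusted p = 0.0148, 0.668 without the block) and by 0.30 with sgRNA2 (adjusted p = 0.00277). With sgRNA1 it was higher by 0.17 and did not pass (adjusted p = 0.0937). The call for both guides was lost without control library 1 (adjusted p = 0.0986), 3 (0.0616) or 4 (0.0722) and without number 1 (0.143) or 4 (0.0854), while that for sgRNA2 held in 16 of 16 such fits. With no filter (0.0625), numbers 1 and 2 alone (0.0594) or numbers 3 and 4 alone (0.0651) the call for both guides was lost too. It held with quantile scaling (0.0209) and no trend (0.0182). The sgRNA2 call was lost with numbers 1 and 2 alone (adjusted p = 0.0552).

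ITGB2 (ENSG00000160255.17; chromosome 21 at 44885953 to 44931989, minus strand), the beta chain shared by CD11a, CD11b and CD11c, was at 12.32, 12.49, 12.51 and 12.48 in control. It was at 12.50, 12.51, 12.63 and 12.53 with sgRNA1 and at 12.49, 12.59, 12.67 and 12.65 with sgRNA2. The lowest value of all 12 was that of control library 1, and the guide libraries overlapped the controls. ITGB2 was higher by 0.12 for both guides, a fold of 1.09, and lay just inside the threshold with the block (SE 0.035, adjusted p = 0.04996, 0.627 without it). It passed in only 3 of the 16 leave-out fits, without sgRNA1 library 2 (adjusted p = 0.0494) or 4 (0.0294) or sgRNA2 library 3 (0.0197), and the adjusted p reached 0.312 without number 1. With sgRNA2 alone ITGB2 rose by 0.15 (adjusted p = 0.0366), a call kept in 5 of 16 such fits.

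ITGAL (ENSG00000005844.17; chromosome 16 at 30472658 to 30523185, plus strand), the CD11a chain of the receptor LFA-1, was at 11.45, 11.43, 11.60 and 11.47 in control. It was at 11.62, 11.43, 11.65 and 11.48 with sgRNA1 and at 11.62, 11.60, 11.70 and 11.66 with sgRNA2. The smallest of its 8 differences from the control of the same number was 0.0006, for sgRNA1 library 2, and the largest was 0.20. With the block ITGAL rose with sgRNA2 (0.16, SE 0.041, adjusted p = 0.0335, 8 of 16 fits with a library or number left out). That call was lost with no filter (0.0913), no trend (0.0511) or numbers 3 and 4 alone (0.325). It held with quantile scaling (0.0152) and numbers 1 and 2 alone (0.0303). For both guides ITGAL was higher by 0.11 and did not pass (adjusted p = 0.118), nor with sgRNA1 (0.06, adjusted p = 0.52). For both guides ITGAL passed with quantile scaling (adjusted p = 0.0493) and with numbers 1 and 2 alone (0.0496).

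ITGAX was also set against the other 3 chains of its family within each library. Since ITGAX was already known as one of the largest increases, the direction of these 3 differences was largely given, and their p-values are not independent evidence. Relative to its partner ITGB2 in the same library, ITGAX was at -5.65, -5.73, -5.45 and -5.64 in control, at -5.34, -5.56, -5.00 and -4.97 with sgRNA1 and at -5.28, -5.41, -4.91 and -4.95 with sgRNA2. The difference was higher by 0.44 with both guides (exact permutation p = 0.00808). The ranges overlapped, with sgRNA1 library 2 (-5.56) below control library 3 (-5.45). Relative to ITGAM, its neighbour on the chromosome, the controls lay between -2.00 and -1.91 and the guide libraries between -1.79 and -1.48, with no overlap. This difference was higher by 0.33 (exact permutation p = 0.00202, the smallest that 495 arrangements allow). Relative to ITGAL it was higher by 0.46 (exact permutation p = 0.00404). The controls lay at -4.79 to -4.55 and the guide libraries at -4.48 to -3.93, again with no overlap. All 3 differences were higher in 8 of 8 guide libraries than in the control of the same number, each with an exact permutation p = 0.0123 within the number. These and the test of ITGAX itself were the 4 permutation tests made, and their Benjamini-Hochberg adjusted p was 0.00808 each over all arrangements and 0.0123 within the number.

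**Figure D3:**
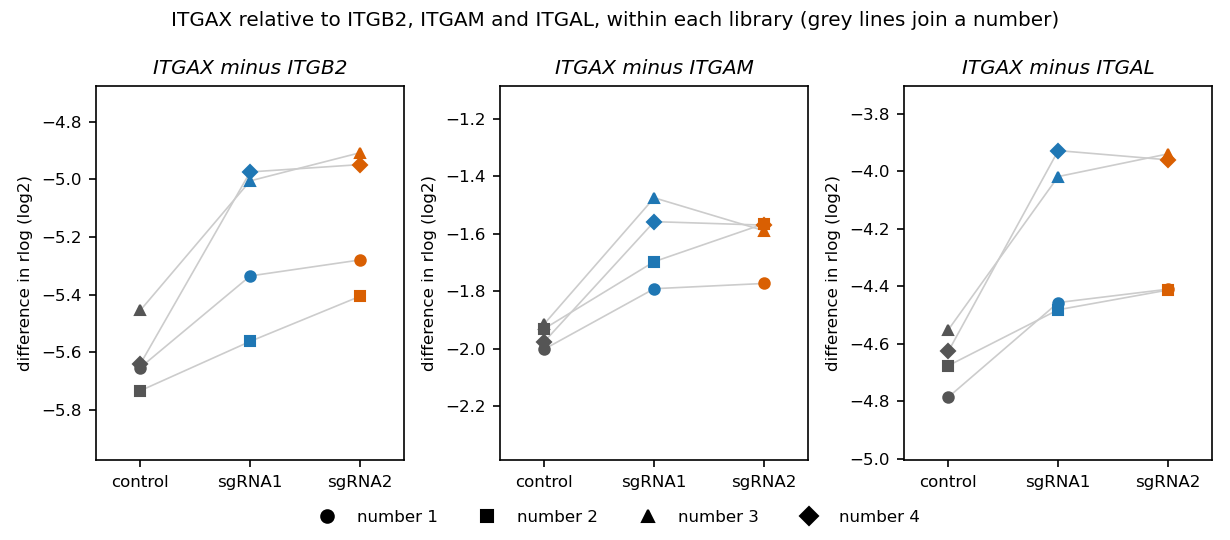
ITGAX minus ITGB2, ITGAM and ITGAL within each library, in rlog units (log2), with grey lines joining libraries of the same number; all panels span the same range. In each panel every guide library lies above the control of its number. For ITGAM the guide libraries (-1.79 to -1.48) lie above all controls (-2.00 to -1.91). The same holds for ITGAL (-4.48 to -3.93 against -4.79 to -4.55), while for ITGB2 the ranges overlap.

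ITGB7 (ENSG00000139626.15; chromosome 12 at 53191318 to 53207307, minus strand), the beta chain of the gut homing receptor, was at 7.16, 7.08, 6.69 and 6.54 in control. It was at 7.34, 6.92, 7.00 and 6.85 with sgRNA1 and at 7.35, 7.28, 7.03 and 6.99 with sgRNA2. It was lower in libraries 3 and 4 than in library 1 of every group, the opposite of ITGAX, and the number held 61.6% of its squared deviations. ITGB7 was higher than the control of the same number in 7 of 8 guide libraries, with sgRNA1 library 2 at -0.16. With the block it rose by 0.23 for both guides (SE 0.061, adjusted p = 0.0347, 0.728 without it). This call held in 6 of 16 fits with a library or number left out, those without control library 2, number 2, sgRNA1 library 2, 3 or 4 or sgRNA2 library 3, and the adjusted p reached 0.166 without control library 3. With sgRNA2 it rose by 0.30 (adjusted p = 0.00967), a call lost in 1 of the 16 leave-out fits, that without number 4 (adjusted p = 0.0835), and also with no filter (0.0789) or with numbers 1 and 2 alone (0.107). ITGB7 shares 1886 exon bases with ZNF740 on the other strand, and whether the counting used the strand is not given in the sources used here. ZNF740 was at 9.37 to 9.50 over the 12 libraries and differed by -0.0004 between both guides and control. Antisense genes also share exon bases with ITGAL (415 and 204), ITGB2 (303), ITGA6 (174, 125 and 52), ITGA5 (48) and, as a noncoding gene of the other strand, ITGB1 (42), and without the strand their reads cannot be told apart. ITGAX and ITGAM share no exon bases with an annotated gene.

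The chains that pair with ITGB1 did not pass in any comparison in the fits of all libraries on the deposited values, with or without the block. ITGA5 (ENSG00000161638.10; chromosome 12 at 54395261 to 54419460, minus strand), the fibronectin receptor chain, was at 10.78, 10.72, 11.02 and 11.08 in control. It was at 10.997, 10.84, 11.15 and 11.02 with sgRNA1 and at 10.90, 10.83, 11.19 and 11.14 with sgRNA2. The groups overlapped almost in full, and libraries 3 and 4 were above 1 and 2 in every group. ITGA5 was higher than the control of the same number in 7 of 8 guide libraries, with a difference of 0.11 (SE 0.036, adjusted p = 0.0774 with the block). For both guides with the block, ITGA5 passed in 4 of the 16 leave-out fits, with quantile scaling (adjusted p = 0.0433) and with numbers 1 and 2 alone (0.0162). It did not pass with no filter (0.132), no trend (0.100) or numbers 3 and 4 alone (0.688). With sgRNA1 it passed with the block and numbers 1 and 2 alone (adjusted p = 0.0180).

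ITGA4 (ENSG00000115232.13; chromosome 2 at 181457202 to 181536187, plus strand), the alpha chain of VLA-4, was at 10.25, 10.53, 10.53 and 10.41 in control. It was at 10.26, 10.47, 10.50 and 10.43 with sgRNA1 and at 10.25, 10.46, 10.38 and 10.39 with sgRNA2. Library 1 was lowest in every group. The difference for both guides was -0.04, with a 95% interval of -0.11 to 0.03 with the block. ITGA4 was lower with sgRNA2 than with sgRNA1 in 4 of 4 numbers, by up to 0.11, and the share of all genes that were so was not counted.

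ITGB1 (ENSG00000150093.18; chromosome 10 at 32900319 to 33005792, minus strand), the widely expressed beta chain, was at 10.55, 10.57, 10.58 and 10.55 in control. It was at 10.46, 10.52, 10.54 and 10.73 with sgRNA1 and at 10.46, 10.44, 10.63 and 10.61 with sgRNA2. The controls were closer together (SD 0.012) than the sgRNA1 (0.116) or sgRNA2 (0.096) libraries. The difference for both guides was -0.01, with a 95% interval of -0.10 to 0.07 with the block, and its sign turned with quantile scaling (0.0088) or with numbers 3 and 4 alone (0.061).

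ITGA6 (ENSG00000091409.14; chromosome 2 at 172427354 to 172506282, plus strand), the laminin receptor chain, was at 7.27, 6.79, 6.84 and 6.74 in control. It was at 7.10, 6.80, 6.88 and 6.83 with sgRNA1 and at 7.15, 6.86, 6.77 and 6.69 with sgRNA2. Library 1 was the highest of every group, and the number held 90.1% of the squared deviations of ITGA6 against 1.2% for the group. The difference for both guides was -0.03, with a 95% interval of -0.12 to 0.06 with the block, and it was 0.094 without control library 1 and without the block. For these genes an adjusted p above the threshold does not show that their mRNA stayed level, and the intervals give the size of change that the libraries leave possible.

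The genes thus differed in how much of their variation went with the group. The group held 56.5% of the squared deviations of ITGAX, 46.1% of those of ITGAL and 45.7% of those of ITGB2. It held 30.2% for ITGAM, 25.6% for ITGB7, 12.6% for ITGA5, 6.35% for ITGA4 and 2.45% for ITGB1. The number means of ITGAX were 7.01, 6.96, 7.48 and 7.37 for numbers 1 to 4, so that libraries 3 and 4 were above 1 and 2 in each group, as they were for ITGAM and ITGA5. ITGAX was higher in guide libraries within either pair of numbers.

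Between the guides, ITGAX was higher with sgRNA2 than with sgRNA1 in 4 of 4 numbers, by 0.04 to 0.24, as were ITGAM (0.02 to 0.25) and ITGB7 (0.01 to 0.36). The share of all genes that were higher in 4 of 4 numbers was not counted. The fitted difference of ITGAX was 0.14, with a 95% interval of 0.01 to 0.27 with the block, and did not pass (adjusted p = 0.717, and 1.00 without the block). None of the 9 genes passed between the guides in either fit, where 0.00911% of all genes did with the block and 0.00911% without it. At an unadjusted p under 0.05, 4 of the 9 passed with the block (ITGAX, ITGAM, ITGAL and ITGB7) and 0 without it, against 6.83% and 0.838% of all genes. YBX1 was lower with sgRNA1 than with sgRNA2 in every library, the guide with the smaller ITGAX difference.

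Levels were compared between genes after subtraction of log2 of the exon length in kb. On this length-adjusted scale ITGB2 was the highest in control cells (9.68 ± 0.09, SD, n = 4), followed by ITGAL (8.79 ± 0.08). ITGA5 (7.98 ± 0.17) and ITGB1 (7.97 ± 0.01) came next and overlapped. ITGA4 was at 7.45 ± 0.13 and ITGAM at 6.27 ± 0.14. ITGB7 (4.70 ± 0.30), ITGA6 (4.20 ± 0.25) and ITGAX (4.01 ± 0.17) were the lowest, with ITGA6 overlapping both of the others. ITGAX reached 4.50 ± 0.32 with sgRNA1 and 4.64 ± 0.31 with sgRNA2, means above that of ITGA6 in the same groups (4.19 and 4.16), so the order of these genes at the low end changed with the guides. CD11c mRNA stayed far below that of CD18 and CD11a in every group.

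**Figure D4:**
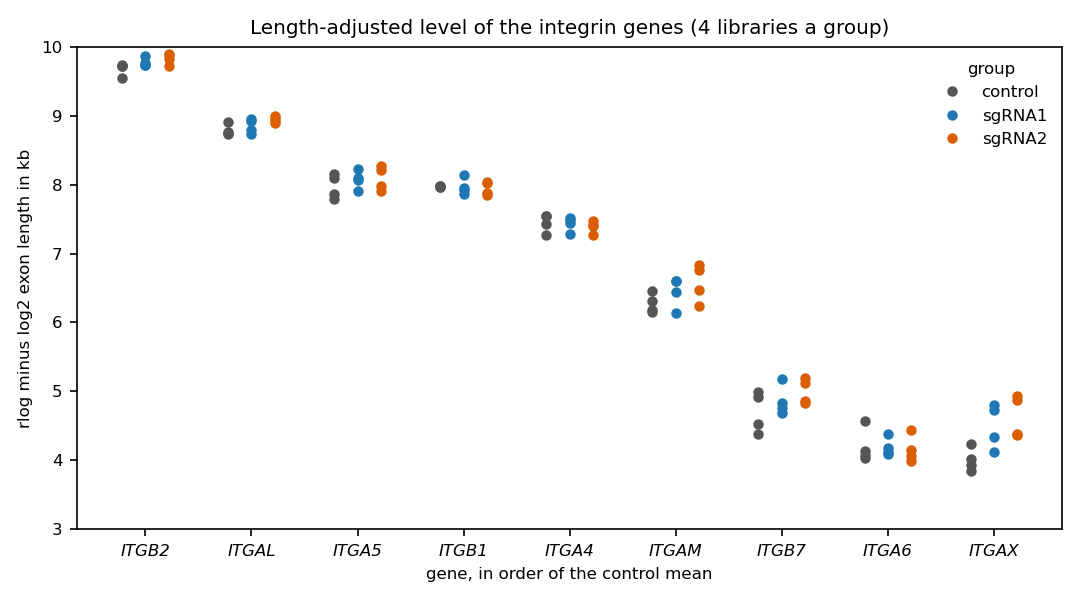
Length-adjusted level (rlog minus log2 of exon length in kb) of the 9 genes in each library, with genes in order of the control mean and groups by colour. The control means run from 9.68 for ITGB2 to 4.01 for ITGAX, and ITGAX is at 4.50 with sgRNA1 and 4.64 with sgRNA2.

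Within 250 kb of ITGAX the annotation (GENCODE 29) holds 18 protein-coding genes, of which 9 were expressed above the filter. With the block ITGAX and ITGAM themselves rose for both guides, where 2.53% of all genes did, and no other tested gene of the window passed. The median difference of the 9 was 0.03. PYCARD, which encodes the inflammasome adaptor ASC, differed by 0.11 (adjusted p = 0.192), and TRIM72 by -0.14 (adjusted p = 0.0701), lower in 8 of 8 guide libraries. ITGAD, which encodes CD11d, a further alpha chain that pairs with CD18, follows ITGAX on the same strand at 31393312 to 31426505 and was at or below -0.97 in all 12 libraries, under the filter.

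The genes whose pattern was most like that of ITGAX were sought over the 12 libraries after each gene was centred on its number. DLX1, RALB, LILRB1 and ZSCAN9 were among the 5 genes with the highest Pearson r (0.97 each). Their Spearman rho was 0.90, 0.80, 0.80 and 0.89, and their uncentred r was 0.47, 0.84, 0.52 and 0.97. For both guides with the block DLX1 and LILRB1 passed (limma adjusted p = 0.0167 and 0.00815), while RALB (0.186) and ZSCAN9 (0.252) did not. The lowest were MCM3, a subunit of the replication helicase (-0.99), LARS2 (-0.98) and HSP90AB1 (-0.97). Without centring, ZSCAN9 (0.97), RCBTB2 and RASGRP4 (0.95 each) led. Of the other integrin genes ITGAM ranked 44 of 10981 with r of 0.92, ITGB2 ranked 72 and ITGB7 75 with r of 0.91 each. ITGAL ranked 443, and ITGA5 791. ITGB1, ITGA6 and ITGA4 ranked 5008, 7090 and 8904. ITGB7 owed its place to the centring, and its uncentred r with ITGAX was 0.05. The points are libraries that share a group, a number and a normalisation, so that r is a description.

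Genes of integrin function were counted by role, each with the block for both guides, where 2.53% of all genes rose. Of the other alpha chains 4 were expressed above the filter (ITGAE, ITGAV, ITGA7 and ITGA2B) and of the other beta chains only ITGB3, and none of these passed. Of 15 genes that activate integrins from inside the cell 1 rose, the adaptor gene FYB1 (0.21, SE 0.049, adjusted p = 0.0157), and the median was 0.06. TLN1, which encodes talin, and FERMT3, which encodes kindlin-3, differed by 0.01 and 0.06. None of 11 genes that restrain integrin activation passed (median 0.003). Of 25 genes that signal from bound integrins 3 rose (median 0.02), among them TYROBP, the adaptor DAP12 (0.26, SE 0.059, adjusted p = 0.0154), and the Src family kinase FGR (0.22, SE 0.053, adjusted p = 0.0170). With sgRNA1, where 1.37% of all genes rose, none of the 25 passed (limma adjusted p = 0.0836 for TYROBP and 0.112 for FGR). With sgRNA2, where 2.17% of all genes rose, FCER1G passed as well (0.17, adjusted p = 0.0346). Of 10 ligand and counter-receptor genes, C3, whose fragment iC3b is bound by CD11b and CD11c, rose (0.19, SE 0.052, adjusted p = 0.0409), and the median was -0.001. With sgRNA1 none of the 10 passed (limma adjusted p = 0.229 for C3). With sgRNA2 SPP1, which encodes osteopontin, rose as well (0.55, SE 0.106, adjusted p = 0.0048). None of 13 membrane partners and other adhesion receptors passed (median 0.03). All tested genes had a median of -0.01, and no gene of these lists passed without the block.

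Markers of other cell types were read beside these results. Of 20 dendritic cell and monocyte markers 10 were expressed above the filter, and all 10 were fitted above 0. Their median was 0.12 for both guides, 0.04 for sgRNA1 and 0.21 for sgRNA2, with all tested genes at -0.01 in each case. With the block 1 of these 10 rose for both guides, CSF1R (0.25, SE 0.072, adjusted p = 0.0439), where 2.53% of all genes did. With sgRNA2 4 of the 10 rose, CD209, HLA-DRA, CD86 and CSF1R, against 2.17% of all genes, while none passed with sgRNA1. Without the block none of them passed, with an adjusted p of 0.619 for CSF1R with both guides and of 0.841 to 0.985 for the 4 genes with sgRNA2. The summed level of the 20 markers was 11.62 to 12.80 in control, 11.88 to 12.54 with sgRNA1 and 12.04 to 12.71 with sgRNA2. LYZ dominates this sum, at 10.97 to 12.45 over the libraries, while the next highest marker, CSF1R, reached 8.81. CD14 (2.64), CD163 (1.26) and CD68 (-1.03) were among the markers under the filter, and FCGR3A was listed at 0. LYZ (11.73), S100A9 (7.06), FCGR1A (6.74) and S100A8 (6.53) were among the 10 above it. MPO, the granule enzyme myeloperoxidase, fell by 0.42 with both guides (adjusted p = 2.63e-05 with the block, 0.133 without it). With the block 315 of the 10982 genes tested fell. MPO was 1 of the 8 markers of the line, of which 7 were fitted above 0. The median of the 8 was 0.04, and none of them passed as higher. The part of these genes in the ITGAX result was not tested. In bulk libraries more cells with CD11c mRNA and more CD11c mRNA in each cell cannot be told apart. The T cell markers CD3D, CD3E and CD2 were below -1. CD3G, MS4A1, HBA1, HBB, PF4, PPBP and COL3A1 were listed at 0 in every library, as was the widely expressed CD99, so that a listed 0 is not read as a low level here, while NCAM1 (10.52), PAX5 (9.23), NKG7 (8.30) and KRT18 (7.67) were expressed. The summed levels, into which a gene listed at 0 enters at that value, were 10.77 to 11.05, 10.72 to 10.91 and 10.73 to 10.82 for the 8 T and NK cell markers in control, sgRNA1 and sgRNA2, and 8.27 to 8.54, 8.21 to 8.36 and 8.22 to 8.47 for the 8 stromal and epithelial markers. The ranges were 9.17 to 9.39, 9.14 to 9.50 and 9.05 to 9.44 for the 4 B cell markers, and 5.34 to 5.47, 5.34 to 5.50 and 5.42 to 5.45 for the 8 erythroid and megakaryocyte markers. None of the markers in these 4 lists passed for both guides with the block.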

How the data were processed

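MOLM13 cells with Cas9 were compared in 12 libraries (4 control, 4 sgRNA1, 4 sgRNA2), grouped by their labels. The submitters' processing notes name GRCh38, STAR 2.7.5a, HTSeq 0.6.1pl, Picard 2.9.4, bcl2fastq 2.20.0.422, DESeq2 and SAMtools, with no parameters. The authors deposited rlog values on the log2 scale, normalised by size factors and shrunken, for 19755 protein-coding genes, 3669 of them with the same value in every library. Duplicate reads had been removed according to a name in the labels, which affects abundant transcripts most. The authors' own fold changes and p-values and the z-scores were not used. Counts were not analysed here, so depth is unknown and precision rests on the replicate spread.

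Genes with a mean rlog of at least 4 (10982) were tested two-sided in R 4.3.3 by limma 3.58.1 (lmFit, then eBayes with its trend option), with Benjamini-Hochberg adjustment over all of them and a threshold of 0.05, first without a block and then blocked on the replicate number. The fit was checked on simulated data, built with the effects of the number seen here and independent noise. For both guides, of 100 genes changed by 0.5 in either direction, 94 were called without the block and 100 with it. Since the number was built in, the check cannot show whether blocking on it is right for the real libraries. Pairing by number rests on the data alone: over 12 pairs of same-numbered libraries the deviations from group means had correlations of 0.38 to 0.78, over 36 other pairs of -0.74 to 0.75, and the meaning of a number is not stated. Single values were tested by exact permutation. Figures used Python 3.11.15 and matplotlib 3.10.9. Positions and exon lengths came from GENCODE 29, which held 99.9% of the identifiers without version, and promoter sequences from RefSeq.

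The 9 genes and all lists were chosen with earlier results of these data known. Named were all 9 genes, neighbours of ITGAX within 250 kb, list members that passed (at most 6 a list), and the 5 genes most like and 3 least like ITGAX after centring on the number, with the 3 most like without centring. TLN1, FERMT3, PYCARD and TRIM72 are examples chosen after their values were seen. Some genes that the rule names are not reported here.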

Additional observations from a re-analysis of the deposited data

Results flagged for a closer look

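ITGB2 in control library 1 stood apart from the other 3 controls. It was at 12.32 against 12.48 to 12.51, a gap of 0.868 of the range of the group, above the 95% critical value of Dixon for 4 libraries. Among 27 groups of 4 libraries (9 genes in 3 groups) it was the only one to do so, and chance gives about 1 in 20. ITGB2 was higher by 0.10 with both guides without this control library, against 0.12 with it, and did not pass then (limma adjusted p = 0.224 with the replicate block).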

How the results depend on the processing

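Without a block no gene of the 9 passed for both guides, sgRNA1 or sgRNA2, and this stayed so with no filter, a mean of at least 6, quantile scaling, median centring, no trend, each library left out, and numbers 1 and 2 alone. All calls of the 9 genes below were increases, and each set of counts is followed by the share of all genes that rose in the same fits. With numbers 3 and 4 alone 2, 1 and 3 genes passed (0.446%, 0.173% and 0.938%). With the replicate block 4, 1 and 5 passed (2.53%, 1.37% and 2.17%). The next 5 blocked settings, and the blocked fits without 1 library, were chosen after the data were seen. With the block and quantile scaling 5, 1 and 5 passed (2.58%, 1.25% and 1.93%), and with no filter 1, 1 and 2 (0.69%, 0.199% and 0.354%). With no trend 3, 1 and 3 passed (2.45%, 1.32% and 1.98%). With the block and numbers 1 and 2 alone 3, 2 and 2 passed (4.05%, 3.45% and 1.79%), and with numbers 3 and 4 alone 2, 2 and 3 (0.619%, 0.965% and 2.27%). Over all fits with a library or number left out, blocked or not, the counts were 0 to 5, 0 to 3 and 0 to 6. With the block they were 1 to 5, 1 to 3 and 2 to 6 (0.492% to 4.23%, 0.228% to 2.9% and 0.674% to 3.1%). ITGAX passed in every blocked fit named here. The 4 permutation results kept their direction and stayed under 0.05 with the block, with quantile scaling and without any library.

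Differences near 0 changed sign without passing. With quantile scaling or a pair of numbers alone the values are the same blocked or not. With quantile scaling ITGB1 was at 0.0088, 0.016 and 0.0012 for both guides, sgRNA1 and sgRNA2. With numbers 3 and 4 alone ITGB1 was at 0.061, 0.068 and 0.053, and ITGA6 at 0.0013 for both guides and 0.063 for sgRNA1. With numbers 1 and 2 alone ITGA5 was at -0.047 and ITGA6 at 0.056 between sgRNA2 and sgRNA1. Over blocked and unblocked fits with a library or number left out, ITGA6 ranged from -0.085 to 0.094 for both guides, -0.075 to 0.11 for sgRNA1, -0.14 to 0.077 for sgRNA2 and -0.13 to 0.031 between the guides. ITGB1 ranged from -0.057 to 0.011, -0.061 to 0.032, -0.069 to 0.0063 and -0.062 to 0.031, ITGA4 from -0.077 to 0.031 for sgRNA1, and ITGA5 from -0.041 to 0.078 between the guides. With the block ITGA6 ranged from -0.049 to 0.014 for both guides, and the sign of ITGA4 for sgRNA1 turned only without the block. The cause was not tested. The rlog scale gives no depth, so no limit from counting can be set for the low genes ITGAX, ITGA6 and ITGB7.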
